A study of Mus musculus with 3 samples.

Results

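The insulin-like growth factor (IGF) genes described here are 2 ligands (Igf1 and Igf2), 2 receptors (Igf1r and Igf2r) and 6 binding proteins (Igfbp2 to Igfbp7). They were chosen by name, and 1 probe set with a single gene symbol stood for each gene. All 10 were measured, of 18687 named genes. The cells were sorted by fluorescence from trypsin-treated glomeruli of male CD-1 mice, adult and carrying the transgene Tg(Meis1-EGFP)FO156Gsat, in which Meis1 regulatory sequence drives a green fluorescent protein. The labels give the source as glomerular and extraglomerular mesangium, so a sorted cell is one in which the transgene was active. Each of the 3 samples was 1 kidney, unpooled, on 1 array. Whether 2 kidneys shared a mouse is not labelled, and the SD covers only the spread between these samples, technical spread included. All samples form 1 group, with no other cell population to set it against, and no difference between conditions was tested.

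IGF1 and IGF2 are secreted peptides that signal through the receptor tyrosine kinase encoded by Igf1r. The product of Igf2r, the cation-independent mannose phosphate receptor, takes up IGF2 and delivers it to lysosomes. Binding proteins hold IGFs outside the cell, prolong their life, and release them when proteases cut the binding protein. In the glomerulus, mesangial cells are known to respond to IGF1.

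Both receptors and 3 of the 6 binding proteins (Igfbp4, Igfbp5 and Igfbp7) were clearly above background in the sorted cells, while neither ligand was. Background was read from families taken as silent, namely keratin-associated proteins and the olfactory, vomeronasal and trace amine receptors. Whether each of their genes is silent in kidney cells was not tested. The 95th percentile of their 1267 probe sets gave a threshold of 7.48, 7.46 and 7.41 on the arrays of samples 1, 2 and 3, and a gene was called above it when it passed on all 3 arrays. By this rule 5 of the 10 IGF genes (50.0%) were above, beside 58.0% of all named genes. The same 5 genes stayed above a threshold raised by 1 on the log2 scale, which 32.7% of all named genes passed. The smallest margin of a gene over the threshold among the 3 arrays had a median of 0.72 for the 10 genes and 0.29 for all named genes. The 0.72 is the midpoint of a gap, from Igfbp2 at -0.01 to Igf2r at 1.45, that held no IGF gene, so it describes no typical member. Probe sets differ in affinity, so no order of amount between genes is read from the values. All values below are deposited log2 signals.

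The starts of 5 of these genes are shown. Igfbp5, Igfbp7, Igf1r and Igf2r are genes above the threshold whose listed start is the outermost one, and Igfbp2, at the threshold, is the immediate neighbour of Igfbp5 in the RefSeq gene table. Each line holds the 100 bases before a RefSeq transcription start (build GRCm38.p6), from 5′ to 3′ on the gene's own strand. Capitals mark matches, on either strand, to TATAAA or TTTAAA (A/T-rich start motifs), GGGCGG (the GC box) or CACGTG (an E-box), all picked with the sequences in view.
Igfbp5, chr1:72874866-72874965, minus strand: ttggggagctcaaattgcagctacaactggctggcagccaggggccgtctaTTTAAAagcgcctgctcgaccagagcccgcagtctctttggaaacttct
Igfbp2, chr1:72824380-72824479, plus strand: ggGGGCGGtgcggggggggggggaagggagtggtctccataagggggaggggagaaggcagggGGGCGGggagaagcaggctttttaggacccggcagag
Igfbp7, chr5:77408046-77408145, minus strand: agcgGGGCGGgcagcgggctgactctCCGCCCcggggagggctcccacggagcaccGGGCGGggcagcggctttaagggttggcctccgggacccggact
Igf1r, chr7:67952157-67952256, plus strand: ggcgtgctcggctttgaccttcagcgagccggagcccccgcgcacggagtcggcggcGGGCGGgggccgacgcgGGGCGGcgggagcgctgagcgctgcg
Igf2r, chr17:12769707-12769806, minus strand: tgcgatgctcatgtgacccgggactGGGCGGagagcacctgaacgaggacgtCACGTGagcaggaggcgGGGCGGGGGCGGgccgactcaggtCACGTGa

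The window of Igfbp5 was 55.0% G and C, the median of all 32851 windows, and held TTTAAA and no GC box. Its neighbour Igfbp2 is read from the opposite strand, and its outermost start was 71.0% G and C with 2 GC boxes. The other windows shown were richer in G and C, with 77.0% for Igfbp7, 81.0% for Igf1r and 69.0% for Igf2r. Igfbp7 had 3 GC boxes, Igf1r had 2, and Igf2r had 3 beside 2 E-boxes. Of all windows, 24.7% held GGGCGG, 5.56% TATAAA, 4.39% TTTAAA and 3.17% CACGTG. The window of Igfbp4, not printed, held TATAAA from 28 bases before its listed start and was 75.0% G and C. These are letter matches in short windows, and nothing on the use of a start or a factor was measured here.

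**Figure D1:**
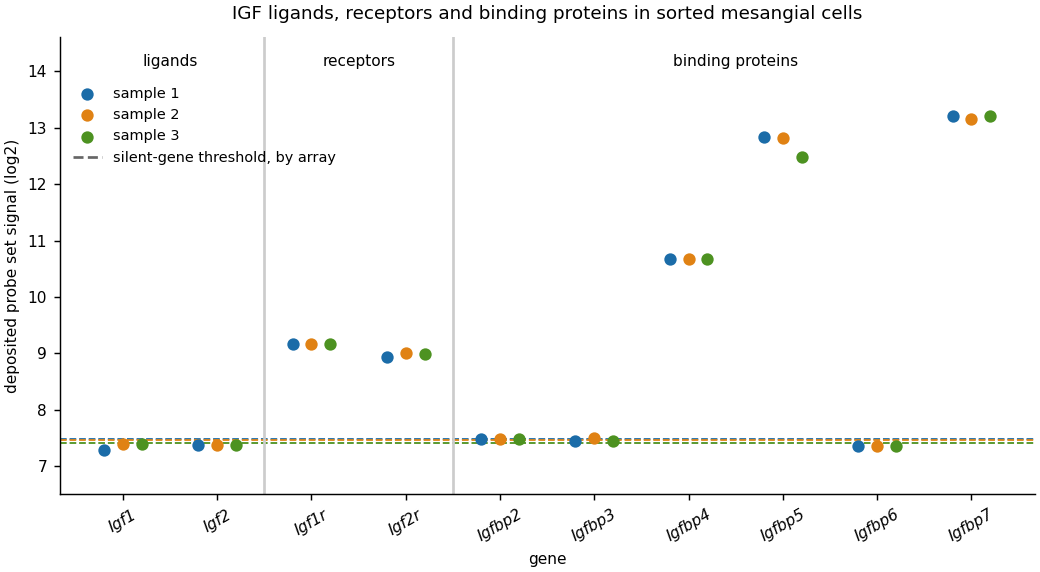
Deposited log2 signal (vertical axis) of the 10 IGF genes (horizontal axis) in each of the 3 samples (points), with the silent-gene threshold of each array as a dashed line. Igf1r, Igf2r, Igfbp4, Igfbp5 and Igfbp7 lie above the lines in every sample, and the other genes lie between 7.28 and 7.51.

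The ligand genes lay just under the threshold. Igf1, the growth hormone-dependent ligand that many tissues also make locally, had 7.28, 7.39 and 7.39 in samples 1, 2 and 3 (mean 7.35 ± 0.06, SD, n = 3; probe set 10365559). It was under the threshold in all 3 samples, by between 0.01 and 0.20. Igf2, the fetal growth factor gene that is expressed from the paternal copy, had 7.38 in all 3 samples (probe set 10569344). It was under the threshold in every sample as well, by at most 0.10. A value under this threshold does not show that a transcript was absent, because both ligand genes passed the 90th percentile of the same silent families, as 68.8% of all named genes did.

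Both receptor genes were above the threshold with a margin of more than 1 in every sample. Igf1r, the signalling receptor, had 9.17 in all 3 samples (probe set 10554094), and its smallest margin was 1.69. Igf2r had 8.93, 9.00 and 8.99 (mean 8.97 ± 0.04, SD, n = 3; probe set 10447799), with a smallest margin of 1.45. Its highest and lowest samples differed by 0.07, a range larger than that of 54.6% of 3228 genes above the threshold at a like level (a mean within 0.5).

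Igf2r is overlapped by Airn, a long noncoding RNA read from the opposite strand that is known to silence the paternal Igf2r copy in mouse. Airn, looked at after its values were seen, had 8.99, 9.33 and 9.60 in samples 1, 2 and 3 (mean 9.30 ± 0.30, SD, n = 3) and was above the threshold in each. Sample 3 was highest for Airn, by 0.44 over the mean of samples 1 and 2, while Igf2r differed by 0.02 in the same direction. The labels say that sense cDNA was labelled, and whether RNA of one strand reached the probe set of the other was not tested.

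Of the 6 binding proteins, Igfbp7, Igfbp5 and Igfbp4 were above the threshold by more than 3 in every sample. Igfbp7, whose product binds IGFs weakly and is also a protein of vessel walls, had 13.21, 13.16 and 13.21 (mean 13.19 ± 0.03, SD, n = 3; probe set 10530841). The 3 samples were close, within 0.05. Igfbp4, whose product mainly restrains IGF action, had 10.67 in all 3 samples (probe set 10381096), with a smallest margin of 3.19.

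Igfbp5 was the IGF gene that varied most between samples. Its product binds IGFs tightly and also attaches to matrix. It had 12.84, 12.82 and 12.48 in samples 1, 2 and 3 (mean 12.71 ± 0.20, SD, n = 3; probe set 10355500). Samples 1 and 2 were near each other, and sample 3 was lower by 0.35 than their mean, a linear ratio of 0.785. The range of 0.36 was larger than that of 94.4% of 108 genes above the threshold at a like level. A difference as low or lower in sample 3 was found for 113 of 10833 genes above the threshold (1.04%). The median difference of the 10833 genes was 0.00. They were not matched for level, and 39.4% of them had 1 value on all 3 arrays, which sets their difference at 0. With 1 sample on the low side, the Igfbp5 difference is a description of that array.

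A few tubule markers were also lowest in sample 3. The thick ascending limb gene Umod had 9.51, 9.18 and 8.22, and Kap, a proximal tubule gene picked once its values were known, had 8.44, 8.51 and 7.17. The mean level of the 9 proximal tubule markers was 7.47, 7.48 and 7.29 in samples 1, 2 and 3, and that of the 8 markers of later tubule was 7.56, 7.69 and 7.51. These falls came mostly from Kap and Umod. Sample 3 was the lowest for 2 of the 9 (Slc34a1 and Kap), and the other 7 of them had 1 value on all 3 arrays. Slc34a1 had 8.24, 8.25 and 7.96. Of the 8 later tubule markers, sample 3 was the lowest for 2 (Umod and Slc12a1). The distal tubule gene Calb1, named after its values were seen, had 7.72, 8.66 and 8.49. Without Kap the proximal mean was 7.35, 7.35 and 7.31, and without Umod the later tubule mean was 7.29, 7.48 and 7.40. None of these 17 markers passed the threshold raised by 1 on all 3 arrays. On single arrays, Umod passed it in samples 1 and 2, Kap in sample 2, and Calb1 in samples 2 and 3. Among mesangial genes, Itga8 had 12.94, 12.96 and 12.97 and Pdgfrb had 12.00, 12.11 and 11.99, without such a drop. The part of tubule RNA in the Igfbp5 difference was not tested. In sorted bulk cells, fewer cells of a type and less RNA per cell cannot be told apart.

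**Figure D2:**
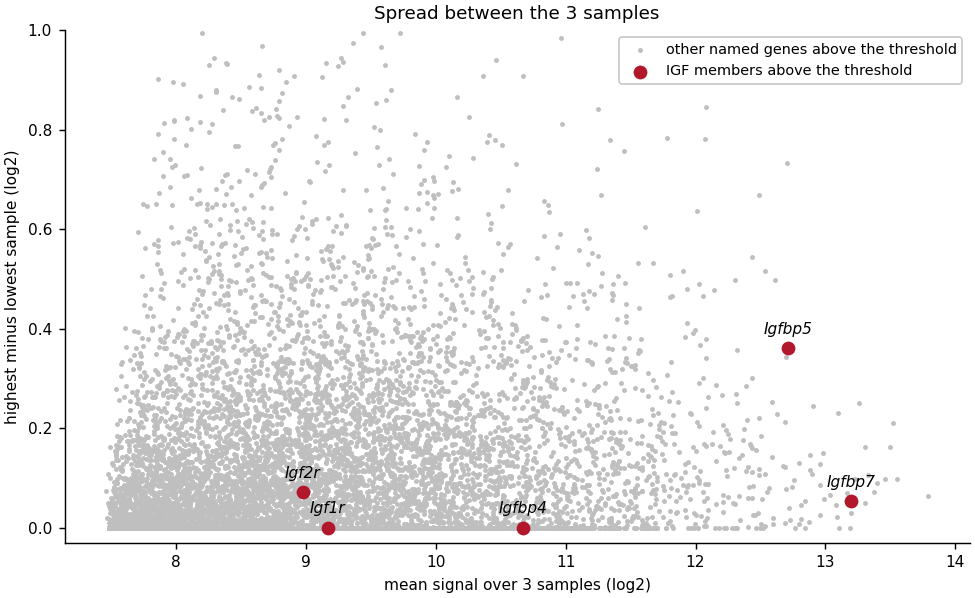
Difference between the highest and the lowest of the 3 samples (vertical axis, log2) against the mean signal (horizontal axis, log2) for named genes above the threshold (grey points) and the 5 IGF genes above it (red points). Igfbp5 stands at 0.36, Igf2r at 0.07 and Igfbp7 at 0.05, and Igf1r and Igfbp4 at 0.00; 65 genes with a range over 1 are off the scale.

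The other binding proteins sat at the threshold. Igfbp2, a circulating binding protein, had 7.47 in all 3 samples (probe set 10347277). That value was 0.01 under the threshold of sample 1 and passed those of samples 2 and 3, by 0.01 and 0.07. Igfbp3, whose product carries most IGF in blood, had 7.45, 7.51 and 7.45 (mean 7.47 ± 0.03, SD, n = 3; probe set 10384223). It was under the threshold of sample 1 by 0.03 and over it by 0.04 in each of the others. Igfbp6, whose product prefers IGF2, had 7.35 in all 3 samples (probe set 10427125) and was under every threshold, by at most 0.13. Without sample 1, Igfbp2 and Igfbp3 counted as above, so 7 of the 10 genes did, beside 58.9% of all named genes. The neighbours Igfbp5 and Igfbp2 were on different sides of the raised threshold in every sample.

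The 5 IGF genes not called above had means between 7.35 and 7.47. Of the 1251 silent genes, 94.2% had a mean under this window and 1.04% had one inside it, and 3.45% of all named genes lay inside it. The threshold was set near the top of these same silent families. The silent share under a window next to it is therefore largely fixed by that rule. Whether these 5 genes were expressed was not tested by these shares.

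Identical values were common among the IGF genes and limit what their SD means. Igf2, Igf1r, Igfbp2, Igfbp4 and Igfbp6 had 1 value on all 3 arrays, Igf1, Igfbp3 and Igfbp7 had 1 value on 2 arrays, and Igf2r and Igfbp5 had 3 different values. Of all named genes, 51.1% had 1 value on all 3 arrays, 39.4% of those above the threshold and 67.3% of those not above. An SD of 0 is therefore no measure of error. Different probe sets also carried the same value on 1 array, to the last of the deposited decimals. The value of Igfbp2 was shared by 26, 34 and 29 other probe sets in samples 1, 2 and 3, and 23 of them were equal to it on all 3 arrays. Igfbp6 shared its value with 15, 19 and 14 others, and Igf1 shared with 0, 38 and 37. The other 7 IGF genes shared with none. Of the named genes, 50.0% of those above the threshold and 72.3% of those not above it shared a value with another probe set on 1 or more arrays. What gave rise to shared values was not tested.

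**Figure D3:**
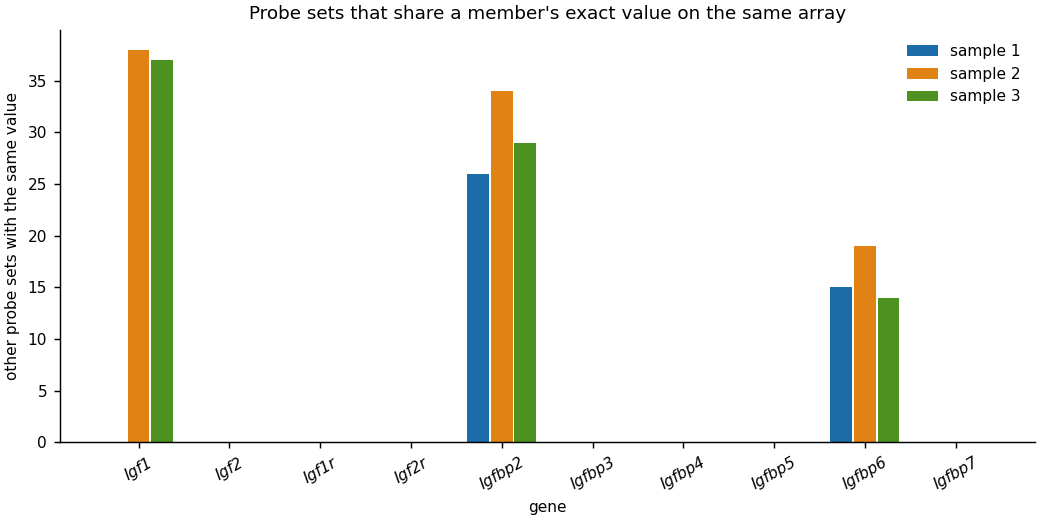
Number of other probe sets (vertical axis) that had exactly the value of an IGF gene (horizontal axis) on the same array, as bars for samples 1, 2 and 3. Bars stand for Igfbp2 (26, 34 and 29), Igfbp6 (15, 19 and 14) and Igf1 (0, 38 and 37), and the other genes are at 0.

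Genes that act with the IGFs, or that are only related to IGF genes (such as Insl5 and Insl6), were read from a list of 72, of which 65 were measured. Of these, 45 (69.2%) were above the threshold and 35 (53.8%) passed it raised by 1, beside 58.0% and 32.7% of all named genes. The median of the smallest margins was 1.14 for the list and 0.29 for all named genes.

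The related ligands and binding proteins were mostly under the threshold, with 1 of 7 measured genes (14.3%) above, beside 58.0% of all named genes. That gene was Insl5, a relaxin-family peptide, at 7.55 in all 3 samples and 0.07 over the threshold. Ins2, an insulin gene, had 7.47 in all samples, Igfals, whose product joins IGF and Igfbp3 in a large blood complex, had 7.20, and Insl6 had 5.59. Igfbp1, chosen after its values were seen because it neighbours Igfbp3 in the gene table, had 6.83, 6.83 and 6.72 and was under every threshold. Both measured genes for proteins that bind Igf2 mRNA were under it too, Igf2bp1 at 7.22 in all samples and Igf2bp3 at 7.01, 7.10 and 7.03.

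Proteases that can cut binding proteins, with their inhibitors, divided into 8 of 12 genes above the threshold (66.7%) and 4 not above. Of all named genes, 58.0% were above. All 8 also passed the raised threshold, which 32.7% of all named genes passed. Adamts1, a secreted metalloproteinase, had 12.07, 11.84 and 12.21 (mean 12.04 ± 0.19, SD, n = 3). Mmp2, a gelatinase, had 11.27, 11.11 and 11.21 (mean 11.20 ± 0.08, SD, n = 3). Htra1, a secreted serine protease known to cut IGFBP5, had 11.20, 10.75 and 11.22 (mean 11.06 ± 0.26, SD, n = 3). The 4 genes not above were the pappalysins, metalloproteinases that cut binding proteins such as IGFBP4 and IGFBP5, and the stanniocalcins that inhibit them. Pappa had 6.66, Pappa2 7.14, Stc1 6.57 and Stc2 6.81, each with 1 value in all samples; apart from Stc1 they were named after their values were seen.

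Among the insulin and growth hormone receptors and their kinases, 5 of 6 genes (83.3%) were above the threshold, beside 58.0% of all named genes. The raised threshold was passed by 2 (33.3%), near the 32.7% of all named genes. Insr, the insulin receptor gene, had 10.62, 10.72 and 10.47 (mean 10.60 ± 0.13, SD, n = 3). Jak2, the kinase of the growth hormone receptor, had 10.29, 10.47 and 10.16 (mean 10.31 ± 0.15, SD, n = 3), and its target Stat5a had 8.39 in all samples. Insrr, the insulin receptor-related receptor gene, was not above, at 6.92 in all samples.

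Most genes that carry the signal inward were above the threshold. Of 11 adaptor genes 9 (81.8%) were above, and 7 (63.6%) passed the raised threshold, beside 58.0% and 32.7% of all named genes. Ptpn11, a phosphatase that links receptors to Ras, had a mean of 10.21 ± 0.04, the Ras exchange factor gene Sos2 10.23 ± 0.17 and the adaptor gene Shc1 10.16 ± 0.14 (SD, n = 3 each). Irs1, a docking substrate of the IGF1 receptor that was chosen after its values were seen, had 10.05 in all samples. Irs4 had 6.75 in all samples and was not above, nor was Grb14, also chosen later, at 7.39 on average. Of 17 genes of PI3K, AKT and their targets 16 (94.1%) were above, and 14 (82.4%) passed the raised threshold. Pik3r1, the regulatory subunit of PI3K, had 12.46 in all samples, Pik3r3 had 10.30, 10.63 and 10.24, and the kinase gene Akt2 had 10.28, 10.04 and 10.18. Foxo4, a transcription factor that AKT inhibits, was under the threshold of sample 1, at 7.47 in all samples.

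Of the integrin and matrix partners of the binding proteins, 6 of 10 (60.0%) were above the threshold and 4 (40.0%) above it raised by 1. These shares were near the 58.0% and 32.7% of all named genes. Itgb1, the common integrin beta chain, had 12.37, 12.41 and 12.46 (mean 12.42 ± 0.04, SD, n = 3). Lrp1, an endocytic receptor that binds IGFBP3, had a mean of 10.95 ± 0.10 and Itgav one of 10.43 ± 0.09 (SD, n = 3 each). Ptprz1, a phosphatase that IGFBP2 binds, had 5.56 in all samples and was not above.

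**Figure D4:**
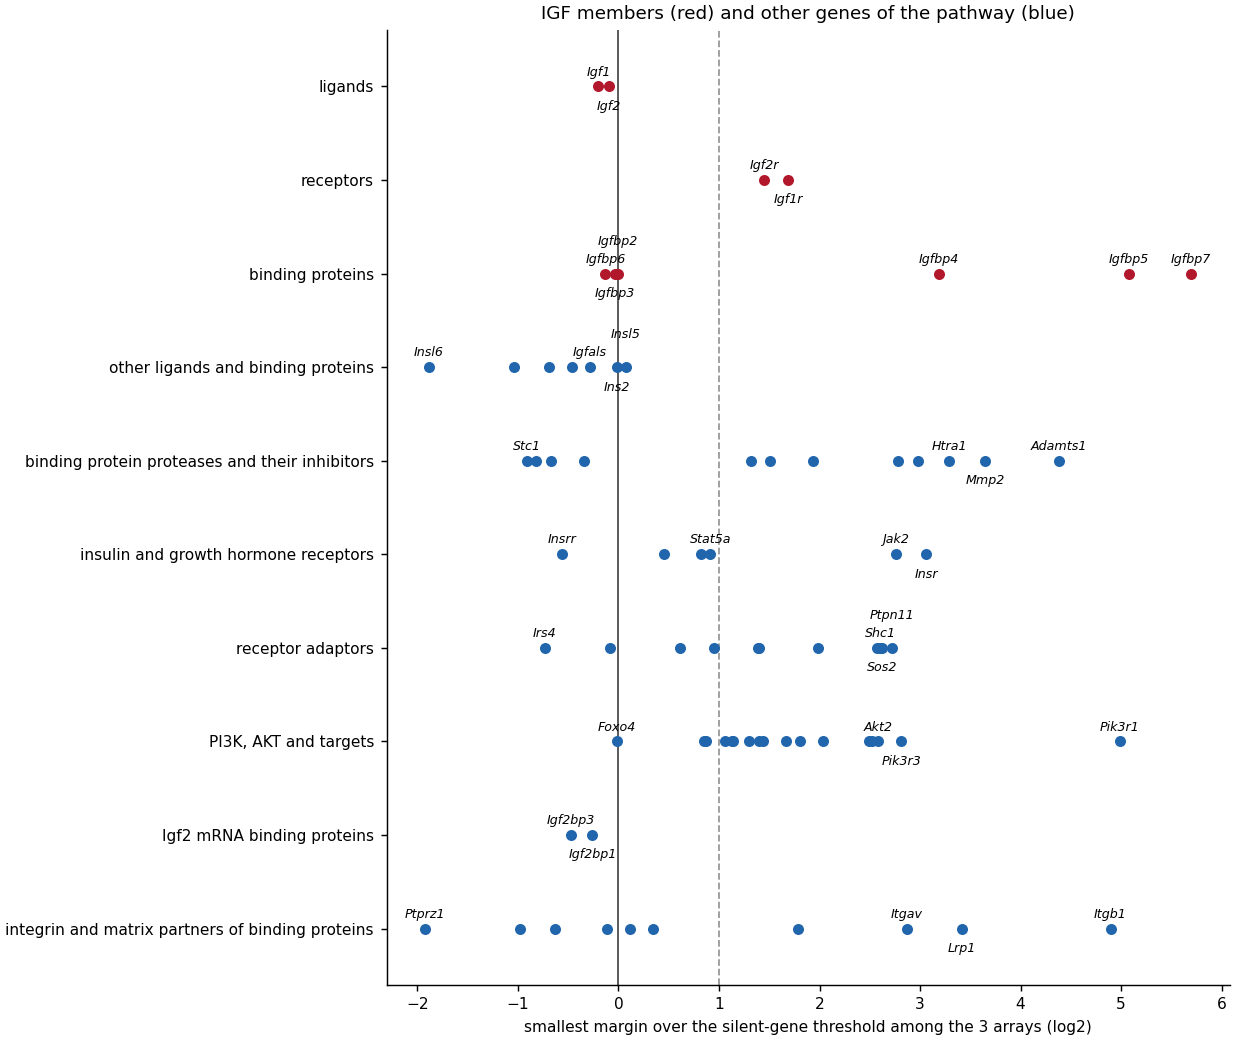
Smallest margin over the silent-gene threshold among the 3 arrays (horizontal axis, log2) for the IGF genes (red) and the other pathway genes by group (blue); the solid line is the threshold and the dashed line the threshold raised by 1. Igfbp7 stands at 5.70, Igfbp5 at 5.07, Pik3r1 at 4.98 and Adamts1 at 4.38, and the ligand genes stand left of the solid line.

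Marker genes were read beside the IGF genes. The lists were made with earlier results of these data known, and there was no second population. They therefore do not test the sort. Of 15 measured mesangial markers 14 (93.3%) passed the raised threshold, beside 32.7% of all named genes. The 2 with the highest margins were Ptn and Itga8, at means of 13.10 ± 0.12 and 12.96 ± 0.01 (SD, n = 3 each). Meis1, whose sequence drove the sort, had 9.33, 9.42 and 9.42. Other cells could also carry IGF transcripts. Of 66 measured markers of other cells, 44 (66.7%) were above the threshold, beside 58.0% of all named genes. The raised threshold was passed by 21 of them (31.8%), near the 32.7% of all named genes. Of 13 endothelial markers 12 were above the threshold and 8 passed it raised by 1. The highest margins were those of Cd34 and Eng, at 11.99 and 11.17 on average, and Pecam1 had 7.55, 7.64 and 7.64. Cdh5, Kdr, Tie1 and Sox17 were named after their values were seen. The first 3 had means of 7.66, 7.57 and 7.55 and did not pass the raised threshold. Sox17, at 6.58 in all samples, was not above. Of 6 fibroblast markers 5 were above and 4 passed the raised threshold, with the highest margins for Pdgfra and Postn, at 11.16 and 10.79 on average. Dcn and Lum were also named after their values were seen. Dcn, at 7.84 on average, did not pass the raised threshold, and Lum, at 5.33 in all samples, was not above. Of 7 contractile smooth muscle markers 5 passed the raised threshold, of 7 podocyte markers 3 did and of 5 parietal markers 1 did. Of the 7 podocyte markers 5 were above the threshold itself, with the highest margins for Cd2ap and Plekhh2, at 11.21 and 10.51 on average. The podocyte gene Nphs1 had 7.35, 7.35 and 7.46 and did not pass the threshold on all 3 arrays. Of 7 macrophage markers 3 were above the threshold and of 4 lymphocyte markers 1 was, and none of either passed it raised by 1. The macrophage genes Cx3cr1 and Cd68 had the highest margins, at 8.03 and 7.85 on average, and Adgre1 had 5.56 in all samples. The mean level of the endothelial list was 9.17, 9.11 and 9.21 in samples 1, 2 and 3, and that of the fibroblast list 8.71, 8.85 and 8.71. Endothelium and fibroblasts are known to express Igfbp3, Igfbp4, Igfbp5 and Igfbp7, and without a second population the part of their RNA in these values was not tested.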

How the data were processed

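Per the labels' protocols, total RNA went through 1 round of WT-Ovation Pico amplification, and biotin-labelled cDNA was hybridised to arrays. The authors deposited log2 values. Per the submitters' processing notes, these came from Affymetrix Expression Console. Its version, background correction and summary step are not given in the sources used, and base 2 was inferred from the highest value, 14.39. Medians of the 3 arrays were 7.53, 7.56 and 7.54, and values were used as deposited. The number of arrays limits the precision.

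The platform annotation listed 23410 of 35557 probe sets; 21789 had 1 symbol, 1621 had several and 12147 were not listed. Entrez numbers updated 21698 symbols with RefSeq (GRCm38.p6). Where a gene had several probe sets, that with the highest mean stood for it. Of 1251 silent genes 59 passed the threshold. No test was made, since there was 1 group. Promoter sequences are RefSeq's (GRCm38.p6), which matched all 10 members; protein sequences were not used here. Members, lists and rules were chosen with earlier results of these data known. Named were all members, the 3 highest and 1 lowest margins of each pathway group and a few markers; others are said to be chosen later. Genes with a like pattern were not sought over 3 samples. The threshold call was run on simulated data. Whether a call near the threshold is correct in the deposited data was not tested. Python 3.11.15 and pandas 2.3.3 were used.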

Additional observations from a re-analysis of the deposited data

How the results depend on the processing

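Igf1r, Igf2r, Igfbp4, Igfbp5 and Igfbp7 were above the threshold under all 10 alternatives. The 5 genes near it were not stable: at the 90th percentile all 10 IGF genes were above, and with olfactory receptors alone, with the mean of the arrays, or without sample 1, Igfbp2 and Igfbp3 joined. Leaving out each sample in turn gave 5 to 7 IGF genes above, 5 each time above the threshold raised by 1, 45 to 47 pathway genes, 45 each time of the markers of other cells, 10866 to 11008 named genes, and 5 to 7 IGF genes with identical values. At the 99th percentile, 3 IGF genes lay more than 1 above the threshold, and 21 other-cell markers and 6594 named genes were above. With the threshold raised by 1, 21 such markers and 6118 named genes were above, against 44 and 10833. These counts follow from where the threshold lies. Shifting arrays to a common median left 0 IGF genes with identical values, by construction, and changed no call of a member. Signal near the threshold cannot separate low expression from background. The alignment of binding protein sequences was not run. No paired analysis was possible because there was 1 group.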
